A study of Mus musculus with 36 samples.

Results

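The genes Gdpd2, Parm1, Pstpip1, Ces1a and Mfsd2a were picked from the 39017 genes counted in fibroblast RNA because their levels were graded over the tumour lines with which the fibroblasts had been cultured. All 5 were found in the count table by symbol, once each, and all 5 were among the 14439 genes that passed the filter on low counts. Mouse pancreatic fibroblasts of the C57BL/6 strain had grown for 48 h either alone (mono-culture) or mixed with GFP-expressing tumour cells, and the mixed cultures were separated by FACS on that GFP before RNA was taken from the fibroblasts. The tumour cells were the sub-clones K, N, M, E, T, V and H, or KPC1, a line whose name the labels do not explain. Each of the 9 groups had 4 libraries, 36 in all, with 12532122 to 21985538 counts per library. The comparison asked how far fibroblast expression depends on which tumour sub-clone is present. Nothing in the labels says that libraries of a group came from separate cultures, so the p-values measure only the spread between these samples, which may be technical.

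The 5 genes belong to different families. Gdpd2 is a membrane member of the glycerophosphodiester phosphodiesterases, enzymes that split glycerophosphodiesters, the products left when phospholipids lose their fatty acyl chains. Parm1 is a mucin-like, heavily glycosylated membrane protein first known as androgen-regulated in prostate. Pstpip1 is an F-BAR adaptor that links the phosphatase PTP-PEST to the actin regulator WASP and binds pyrin, and it is best known from blood cells. Ces1a is a serine esterase of the carboxylesterase family, whose members are retained in the endoplasmic reticulum or secreted and hydrolyse drug, cholesterol and glycerol esters, mostly in liver. Mfsd2a is the sodium-dependent transporter of lysophosphatidylcholine that carries docosahexaenoic acid into brain. Pancreatic fibroblasts themselves are known as the main makers of collagen matrix in pancreatic tumours.

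On mm10, Gdpd2 (ENSMUSG00000019359) spans chrX:100729873-100738895 on the plus strand, Parm1 (ENSMUSG00000034981) chr5:91517615-91626894 on the plus strand and Pstpip1 (ENSMUSG00000032322) chr9:56089962-56128888 on the plus strand. Ces1a (ENSMUSG00000071047) spans chr8:93020214-93048192 and Mfsd2a (ENSMUSG00000028655) chr4:122946850-122961188, both on the minus strand. The gene models have 4609, 5068, 3830, 2248 and 2250 exonic bases, in the same order. Of all stretches of 76 bases, the read length, in the annotated transcripts of the 5 genes, 0 also occurred in a transcript of another gene, which includes the other carboxylesterases. Of the exonic bases of Gdpd2, 923 lie within the span of Gm14866 on the opposite strand, introns of Gm14866 included. Of those of Ces1a, 1762 lie in the same way within Gm45463, which was not among the genes tested. Whether the counting used strand is not stated in the sources used here. Gm14866 had at most 20 counts in any library. Its mean was 0.276 CPM in mono-culture and 0.223 to 0.465 with clones K, N, M and E. With clones T, V and H and KPC1, where Gdpd2 was low too, it was 0.0143 to 0.0553. The part of Gm14866 in the counts of Gdpd2 was not tested.

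Promoter sequence from RefSeq on GRCm38.p6 matched all 5 genes, at 6 start sites. The stretch before the start is shown for the 3 genes with the widest range over the lines, 2 of which (Gdpd2 and Parm1) were high with largely the same lines while the other (Ces1a) ran the opposite way. Each is written 5′ to 3′ on the gene's own strand and ends before the annotated transcript, and capitals mark a match to 1 of the motifs searched.
Gdpd2, chrX:100729597-100729846, plus strand: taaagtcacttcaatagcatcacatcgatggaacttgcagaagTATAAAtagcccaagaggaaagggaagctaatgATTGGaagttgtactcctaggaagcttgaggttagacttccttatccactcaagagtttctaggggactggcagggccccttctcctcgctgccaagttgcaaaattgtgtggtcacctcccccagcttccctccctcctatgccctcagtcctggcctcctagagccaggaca
Parm1, chr5:91517450-91517614, plus strand: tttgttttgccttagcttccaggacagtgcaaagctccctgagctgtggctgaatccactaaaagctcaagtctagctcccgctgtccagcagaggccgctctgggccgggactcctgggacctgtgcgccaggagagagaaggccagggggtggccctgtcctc
Ces1a, chr8:93048193-93048442, minus strand: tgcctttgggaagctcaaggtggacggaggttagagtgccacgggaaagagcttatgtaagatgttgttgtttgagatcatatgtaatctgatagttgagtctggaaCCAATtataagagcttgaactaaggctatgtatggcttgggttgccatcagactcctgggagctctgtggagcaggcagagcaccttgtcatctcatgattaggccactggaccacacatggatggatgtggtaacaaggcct

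The 9 motifs searched on both strands of the 250 bases before each start were the TATA box TATAAA, the CCAAT box CCAAT, the GC box GGGCGG, the E-box CACGTG, the AP-1 motif TGANTCA, the TEAD motif CATTCC, the SMAD motif GTCTAGAC, the CRE half-site TGACGT and the ETS motif CCGGAAG. The capitals in Gdpd2 are a TATA box that begins 207 bases before the start and a CCAAT box (read as ATTGG) at 174 bases, and the matches do not overlap. The capitals in Ces1a are a CCAAT box at 143 bases. Parm1 and the second start of Gdpd2 had no match. The window of that second start lies within the annotated gene, and the windows searched for Parm1 and Pstpip1 run past the annotated gene start. Mfsd2a held a CCAAT box at 54 bases and Pstpip1 a TEAD motif at 238. Of 32851 mouse promoters, 33.8% held a CCAAT box, 12.4% a TATA box and 12.6% the TEAD motif, while the shares were 32.7% for the GC box, 6.02% for the E-box, 6.75% for AP-1, 0.167% for SMAD, 6.47% for the CRE half-site and 6.91% for ETS. No motif was shared by Gdpd2 and Parm1. The GC content of the windows was 50% at the first and 59.6% at the second start of Gdpd2, 65.2% for Parm1, 56.8% for Pstpip1, 47.6% for Ces1a and 61.6% for Mfsd2a, against a median of 52.4% over all promoters.

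Levels are given as CPM, counts relative to the library total after TMM scaling between libraries, in the order of replicates 1 to 4. Since the levels over the 8 lines were what the genes were chosen by, the order of the lines is a description, with no test. In bulk RNA, fewer cells that express a gene and less of its RNA per cell cannot be told apart. Per kilobase, the highest group mean was 15.5 RPKM for Gdpd2, 9.16 for Parm1, 3.74 for Ces1a, 2.80 for Pstpip1 and 1.69 for Mfsd2a, so none of the 5 was an abundant transcript.

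Gdpd2 had the widest range of the 5 and fell into a high and a low set of groups. The mono-culture libraries had 30.2, 31.5, 16.7 and 25.2 CPM of Gdpd2, and with clone K the values were 29.7, 65.2, 40.4 and 41.6. With clone N they were 23.7, 33.96, 19.7 and 12.6. These groups overlap, although 3 of the 4 clone K libraries lie above each library of fibroblasts alone. With clone M the libraries had 19.6, 28.2, 11.3 and 23.9 CPM of Gdpd2, and with clone E 9.77, 30.5, 19.997 and 14.8. Both sets overlap with the mono-culture. With clone T the 4 libraries had 1.80, 1.10, 3.33 and 5.59 CPM of Gdpd2, all below the lowest of the clone E libraries. With clone V they had 0.509, 2.60, 0.436 and 1.197, and with clone H 1.14, 1.06, 0.258 and 1.004. These 3 low groups overlap in part with each other. With KPC1 the values were 0.211, 0, 0.308 and 0.513 CPM, from 0 to 9 counts per library, so that the level is close to the limit of detection at this depth.

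From high to low, the order of mean Gdpd2 was clone K, mono-culture, clone N, clone M, clone E, clone T, clone V, clone H and KPC1, and the only neighbours whose libraries did not overlap were clone E and clone T. The means ran from 44.2 ± 14.98 CPM with clone K to 0.258 ± 0.213 with KPC1 (SD, n = 4), a ratio of 171. Over the 8 lines 18 of the 28 pairs did not overlap. Such counts of pairs, here and for the other genes below, were not made over all genes. Whether they are unusual was therefore not tested. The difference between the highest and the lowest line in mean log2 CPM was 7.50, against a median of 0.75 over the genes tested.

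Parm1 was near the bottom of its range in fibroblasts alone and high with 5 of the clones. The mono-culture libraries had 0.881, 1.43, 0.837 and 1.69 CPM of Parm1. With clone N the values were 69.1, 54.1, 39.6 and 22.3, and with clone M 39.6, 68.0, 29.97 and 28.1. The lowest of these 8 libraries is above the highest mono-culture library. Clone T gave 39.3, 19.1, 36.5 and 22.97 CPM of Parm1, clone K 27.6, 35.9, 31.8 and 14.1, and clone E 24.3, 35.2, 25.3 and 13.2. All 12 again exceed the mono-culture, and the 5 high groups overlap with each other. With KPC1 the libraries had 11.2, 4.22, 12.8 and 9.35 CPM of Parm1, all below the lowest clone E library and all above fibroblasts alone. Clone V gave 0.916, 3.42, 4.63 and 3.89 and clone H 2.40, 3.33, 1.75 and 0.524, and both groups overlap with the mono-culture. In mean Parm1 the order was clone N, clone M, clone T, clone K, clone E, KPC1, clone V, clone H and mono-culture, and only clone E and KPC1 were neighbours without overlap. The line means ran from 46.3 ± 20.03 CPM with clone N to 2.00 ± 1.18 with clone H (SD, n = 4), a ratio of 23.1, and 16 of the 28 pairs of lines did not overlap.

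Pstpip1 was low in every group, with 2.15, 2.09, 2.05 and 1.97 CPM in the mono-culture, where its SD of 0.0761 was the smallest of the 9 groups. With clone N the libraries had 6.43, 12.1, 6.51 and 6.69 CPM of Pstpip1 and with clone T 10.7, 3.30, 4.64 and 7.80, all above fibroblasts alone. With clone M they had 3.16, 1.94, 8.42 and 3.66, with 1 of the 4 below each mono-culture library. KPC1 gave 4.85, 2.05, 3.02 and 2.85 CPM of Pstpip1 and clone K 2.03, 2.02, 2.59 and 2.74, both overlapping with the mono-culture. Clone V gave 0.712, 0.770, 1.91 and 1.79, clone E 0.814, 0.863, 1.90 and 0.957, and clone H 1.44, 0.606, 0.929 and 1.05. The 12 libraries of clones V, E and H all lay below the mono-culture. The order of the means was clone N, clone T, clone M, KPC1, clone K, mono-culture, clone V, clone E and clone H, and only the mono-culture and clone V did not overlap as neighbours. The line means ran from 7.93 ± 2.77 CPM to 1.005 ± 0.343 (SD, n = 4), a ratio of 7.89, and 18 of the 28 pairs did not overlap.

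Ces1a ran against Gdpd2 and Parm1, with its highest mean in clone H co-culture and its lowest in clone K co-culture. The mono-culture libraries had 6.77, 3.47, 4.87 and 2.56 CPM of Ces1a, and with clone H they had 4.19, 7.98, 7.69 and 10.1. With KPC1 the values were 1.27, 2.59, 6.65 and 5.82. The 3 groups overlap. Clone V gave 1.98, 3.27, 3.87 and 7.0005 CPM of Ces1a, clone E 1.10, 1.97, 3.62 and 5.30, and clone N 0.544, 2.27, 2.35 and 3.799, again with overlap with the mono-culture. Clone T gave 0.562, 2.47, 1.31 and 2.10, clone M 0.869, 0.668, 0.917 and 2.01, and clone K 0.0943, 0.455, 0.529 and 1.08. All 12 libraries of clones T, M and K were below the mono-culture. The order of the means was clone H, mono-culture, KPC1, clone V, clone E, clone N, clone T, clone M and clone K, and all neighbours overlapped. The line means ran from 7.49 ± 2.44 to 0.539 ± 0.407 CPM (SD, n = 4), a ratio of 13.9, yet only 7 of the 28 pairs of lines were free of overlap.

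Mfsd2a had the narrowest range of the 5. The mono-culture libraries had 1.87, 1.60, 2.05 and 2.83 CPM of Mfsd2a, and the KPC1 libraries had 5.43, 3.38, 3.20 and 2.91, all 4 higher. With clone V they had 6.87, 2.89, 2.89 and 1.62. Clone H gave 2.16, 3.43, 2.32 and 1.40 CPM of Mfsd2a, clone E 3.45, 1.53, 1.53 and 2.17, and clone K 2.59, 1.89, 1.90 and 0.630, and each of these overlaps with the mono-culture. Clone N gave 1.98, 0.975, 0.739 and 0.680, clone T 0.618, 1.04, 0.874 and 0.554, and clone M 0.558, 0.789, 0.630 and 0.373. The 8 libraries of clones T and M were below each library of fibroblasts alone. The order of the means was KPC1, clone V, clone H, clone E, mono-culture, clone K, clone N, clone T and clone M, with overlap between all neighbours. The line means ran from 3.73 ± 1.15 to 0.588 ± 0.173 CPM (SD, n = 4), a ratio of 6.34, and 10 of the 28 pairs of lines did not overlap.

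**Figure D1:**
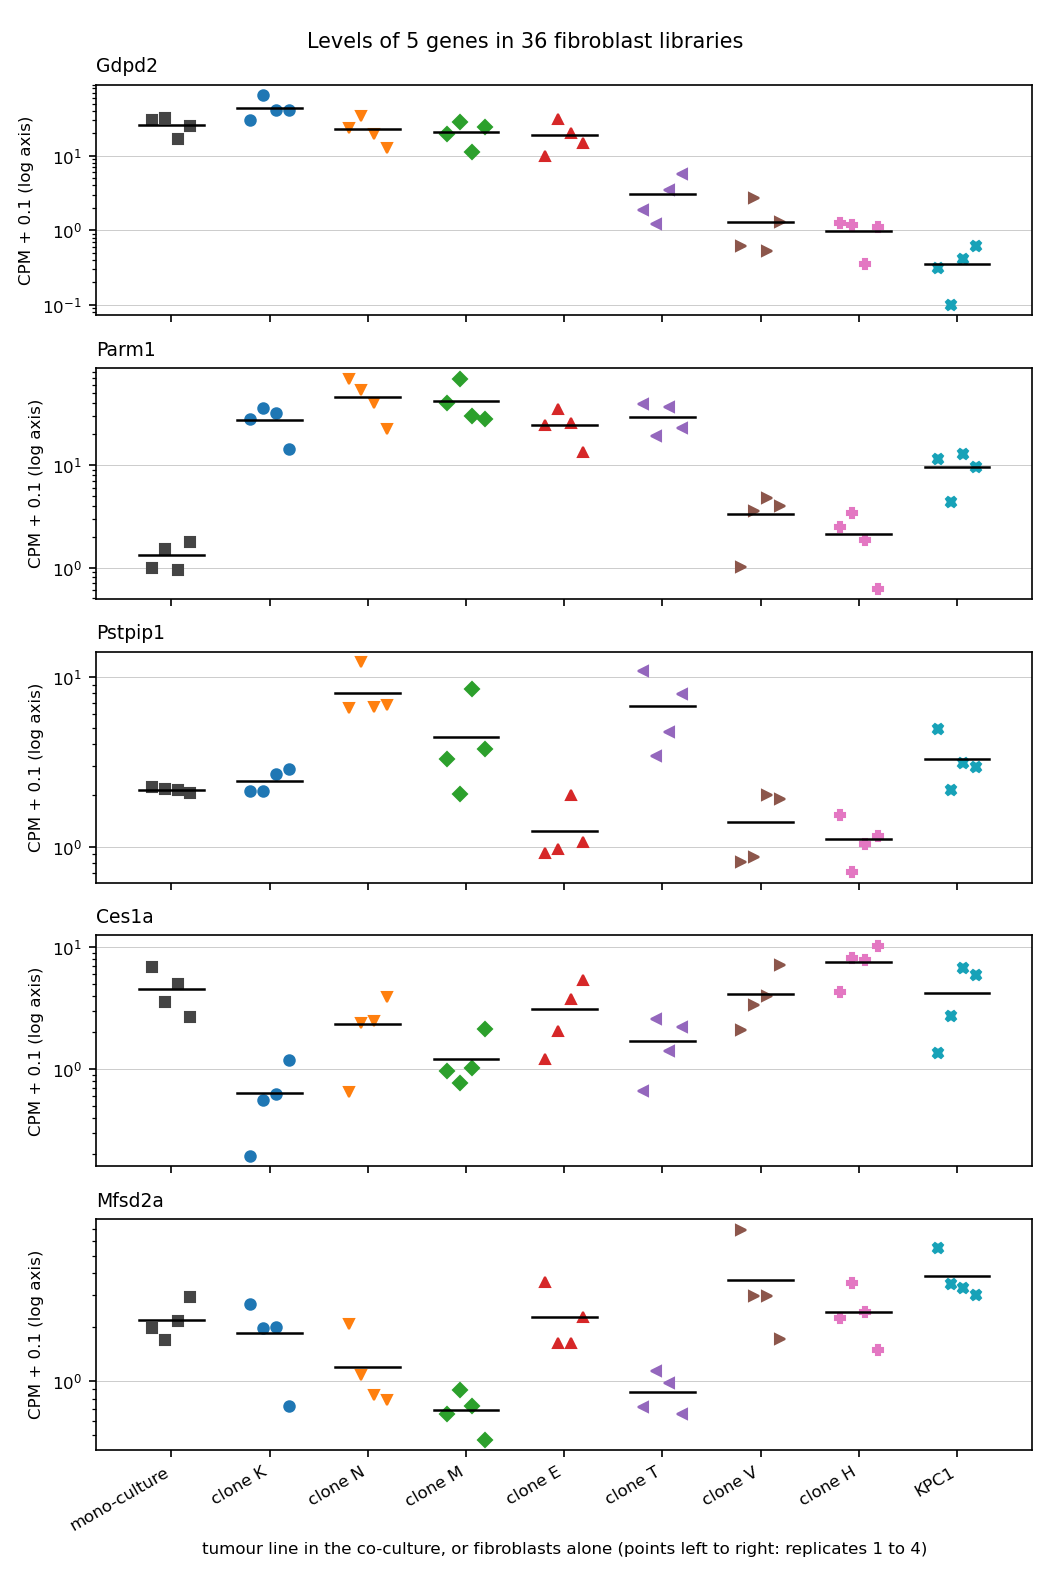
Each panel plots 1 gene, with CPM plus 0.1 on a log axis against the group; points are the 4 libraries, from replicate 1 at the left to replicate 4, and the black bar is their mean. Gdpd2 drops between clone E (mean 18.8 CPM) and clone T (2.95), Parm1 is at 1.21 in mono-culture and 46.3 with clone N, and Ces1a is highest with clone H (7.49).

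Over the means of the 8 lines, Gdpd2 and Parm1 had a Pearson r of 0.745, Gdpd2 and Pstpip1 0.253, Parm1 and Pstpip1 0.716, and Ces1a and Mfsd2a 0.580. The r of Gdpd2 was -0.747 with Ces1a and -0.619 with Mfsd2a, that of Parm1 -0.772 and -0.720, and that of Pstpip1 -0.485 and -0.662, in the same order. These correlations describe lines on which the genes were selected, and share the same 32 libraries. Clone T departed from this parallel between Gdpd2 and Parm1, with a mean of 29.5 CPM for Parm1 against 2.95 for Gdpd2.

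The difference between co-culture and mono-culture was tested as the mean of the 8 co-culture coefficients minus that of the mono-culture in edgeR. The genes were chosen for their levels over the lines, and the same co-culture libraries enter this contrast. The p-values of the 5 genes are therefore not independent of that choice. The contrast gives each line equal weight on the log2 scale. It therefore need not equal the log2 ratio of the mean CPM values given beside it. Sorting is stated for the mixed cultures only, so effects of sorting and of co-culture cannot be told apart here. Of the 14439 genes, 52.7% differed at an adjusted p below 0.05, namely 3774 that were higher and 3835 that were lower, and the median log2 fold change was 0.01. Of the 5 genes, Parm1 rose, Gdpd2 and Ces1a fell, and Pstpip1 and Mfsd2a did not pass the test, so that the count of 3 called is close to that background.

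Parm1 rose from 1.21 ± 0.420 CPM in mono-culture (SD, n = 4) to a mean of 22.96 over the 8 line means. Its mean log2 fold change over the lines was 3.56 with an SE of 0.47 (edgeR adjusted p = 2.5e-07), and 30 of the 32 co-culture libraries exceeded the highest mono-culture library. Gdpd2 fell from 25.9 ± 6.69 CPM to a mean of 13.9. Its mean log2 fold change over the lines was -2.41 with an SE of 0.28 (edgeR adjusted p = 2.97e-08). The fall in Gdpd2 was uneven, since 20 of the 32 co-culture libraries were below the lowest mono-culture library and 4 were above the highest. Without KPC1, the mean of the 7 clones gave -1.81 for Gdpd2 (edgeR adjusted p = 4.43e-06).

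Ces1a fell from 4.42 ± 1.83 CPM in mono-culture to a mean of 3.01. Its mean log2 fold change over the lines was -0.93 with an SE of 0.39 (edgeR adjusted p = 0.042), and 19 of 32 libraries lay below the mono-culture and 4 above. The call was close to the threshold, and leaving out 1 library ended it in 10 of 36 cases. Without mono-culture replicate 1 the log2 fold change was -0.65 (edgeR adjusted p = 0.244), without mono-culture replicate 2 it was -1.03 (0.054) and without mono-culture replicate 3 it was -0.87 (0.109). In the other 7 cases the log2 fold change stayed at -0.92 to -0.91. Leaving out clone K replicate 2 gave an edgeR adjusted p of 0.0502, clone M replicate 1 0.0508, clone M replicate 2 0.0515, clone M replicate 3 0.0503, clone E replicate 2 0.0506, clone T replicate 3 0.051 and clone V replicate 2 0.05. With no filter on low counts the edgeR adjusted p was 0.0821, and in a fit with a replicate block Ces1a changed by -1.27 on the log2 scale (edgeR adjusted p = 0.00063).

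Pstpip1 had a mean of 2.06 ± 0.0761 CPM in mono-culture and 3.48 over the lines, with a log2 fold change of 0.36 (SE 0.31, 95% interval -0.24 to 0.96, edgeR adjusted p = 0.334). Of its 32 co-culture libraries, 16 were above and 13 below the mono-culture. Mfsd2a had means of 2.09 ± 0.531 and 2.00 CPM, with a log2 fold change of -0.33 (SE 0.29, 95% interval -0.90 to 0.25, edgeR adjusted p = 0.366), with 9 libraries above and 15 below. For both genes the lines lay on either side of the mono-culture, so a mean near 0 does not describe single lines.

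**Figure D2:**
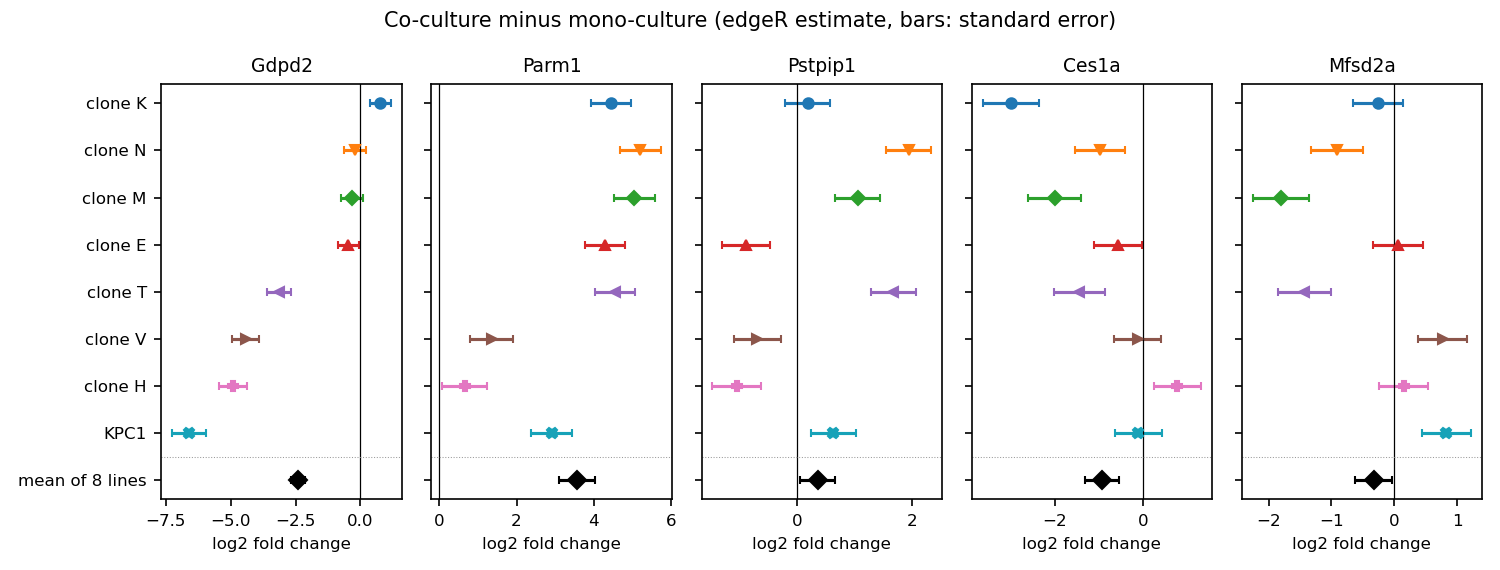
Log2 fold change of each co-culture minus mono-culture (edgeR estimate, bars are SE, n = 4 libraries per group) for the 5 genes, with the mean of the 8 lines as the bottom diamond; the horizontal axes differ between panels. Parm1 lies right of 0 for each line (0.66 to 5.21), Gdpd2 is right of 0 only for clone K (0.77), and the 3 other genes lie on both sides.

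Line by line, the comparisons share the 4 mono-culture libraries and are given as counts of genes whose 4 libraries all lay beyond them. With clone T all 5 genes did so, Parm1 and Pstpip1 above and Gdpd2, Ces1a and Mfsd2a below, where 48.9% of all genes tested did. With KPC1 3 did (Parm1 and Mfsd2a above, Gdpd2 below, background 53.6%), and with clone M 3 (Parm1 above, Ces1a and Mfsd2a below, background 32.1%). With clone K 2 did (Parm1 above and Ces1a below, background 28.8%), with clone N 2 (Parm1 and Pstpip1 above, background 40.6%) and with clone E 2 (Parm1 above and Pstpip1 below, background 37.3%). With clones V and H the same 2 genes lay below, Gdpd2 and Pstpip1, against backgrounds of 52.3% and 51.4%. The fold changes of Gdpd2 were -6.61 (SE 0.64) with KPC1, -4.90 (SE 0.53) with clone H, -4.42 (SE 0.51) with clone V and -3.13 (SE 0.47) with clone T, on the log2 scale. The 5 genes were chosen on levels that enter these counts, so the counts are a description.

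The identity of the sorted cells was checked with marker lists. All 10 fibroblast markers were present in each group, and their summed level ran from a group mean of 14849 CPM with KPC1 to 26774 with clone M, with 21949 in mono-culture. The groups with the lowest sums, clone T with 17172, clone H with 17046, clone V with 16692 and KPC1, were those in which Gdpd2 was low. In these 4 groups the means of Col1a1, Col1a2, Col3a1, Dcn, Lum and Pdgfra were below mono-culture (with KPC1, Col1a1 was 4232 against 7268 CPM), while those of Vim, Thy1, Pdgfrb and Fap were above it (with KPC1, Vim was 3566 against 2483 and Fap 54.5 against 1.08). The means of Thy1, Pdgfrb and Fap were above mono-culture in every other co-culture too (with clone E, Pdgfrb was 1664 against 576 CPM). Pdgfra was 312 CPM in mono-culture and also lower with clones K, N and E (265, 248 and 252), but not with clone M (322). The part of these markers in the level of Gdpd2 was not tested. The sum of 12 epithelial markers, which tumour cells would carry, was 1.06 to 1.82 CPM in mono-culture libraries and had group means of 109 with clone V to 551 with clone N in co-culture, mostly from the keratins Krt8, Krt18 and Krt19. Cldn6, a tight junction protein, was at 0 counts in mono-culture and had means of 8.08 CPM with clone V to 38.9 with clone T, and Cdh1 (E-cadherin) went from 0.258 CPM in mono-culture to 22.2 with clone E, 26.4 with clone N and 30.9 with KPC1 but was at 0.0304 with clone M. Epcam had at most 9 counts in any library, Cldn4 at most 2 and Esrp1 at most 3. The leukocyte marker Ptprc had at most 3 counts in any library and Cd3e 0, and the summed leukocyte list had group means of 5.56 to 13.8 CPM. Other members of that list were present, with Cd68 at 3.37 CPM in mono-culture and 12.99 with clone T. Lyz2 was at 3.32 CPM in mono-culture and 0.0379 with clone H. Group means of the summed lists were 1.72 to 3.60 CPM for endothelial, 2.78 to 8.42 for acinar and 0.0681 to 0.854 for adipocyte markers. The acinar sum, mostly Cela1, was 2.78 to 3.15 with clones V and H and KPC1 and 5.36 to 8.42 elsewhere.

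Pstpip1 moved with the epithelial markers from library to library of the same line. With clone M, the libraries with 149, 56.3, 563 and 296 summed epithelial CPM had 3.16, 1.94, 8.42 and 3.66 CPM of Pstpip1. With clone T, sums of 866, 309, 429 and 550 went with 10.7, 3.30, 4.64 and 7.80. With KPC1, sums of 622, 195, 382 and 307 went with 4.85, 2.05, 3.02 and 2.85. In 6 of the 8 lines the library with the highest mean log2 level of the epithelial markers also had the highest Pstpip1, and in 6 the lowest had the lowest. After the line means were removed, the Pearson r between log2 Pstpip1 and the mean log2 level of the 8 epithelial markers tested was 0.771 over 32 libraries (permutation within lines, two-sided, p = 1e-05, adjusted p = 5e-05) and Spearman's rho was 0.857 (permutation p = 1e-05, adjusted p = 5e-05). These are the smallest p-values that 100000 permutations can give. The summed epithelial level was lowest in replicate 2 in each line but clone N. Pstpip1 was lowest in that replicate in 5 of the 8 lines. The permutations ignore this shared number, so these p-values may be too small. Without the 2 libraries farthest from the median epithelial level r was 0.797, it was 0.706 to 0.880 when 1 line was left out, and 0.699 after means by replicate number were removed. The last of these was not tested.

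Across the line means, r between Pstpip1 and the epithelial markers was 0.499 over 8 lines, and the level of Pstpip1 at a given epithelial sum differed by line. Clone E libraries, with sums of 269 to 523 CPM, had 0.814 to 1.90 CPM of Pstpip1, below the 1.97 to 2.15 CPM of fibroblasts alone, whereas clone N libraries with sums of 447 to 692 had 6.43 to 12.1. The part of the tumour-cell markers in the level of Pstpip1 was not tested.

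**Figure D3:**
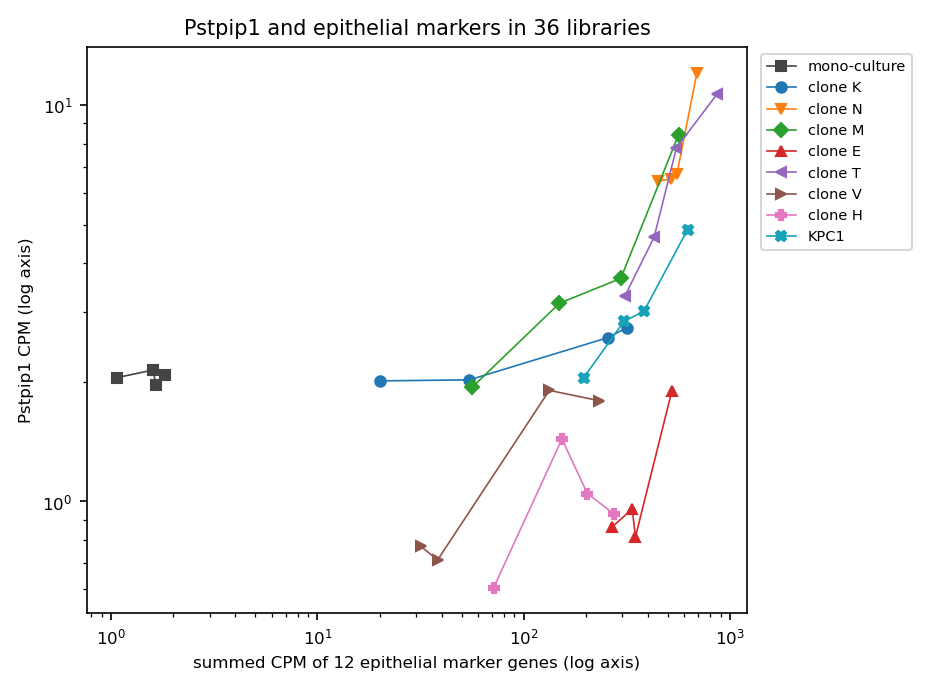
Pstpip1 CPM against the summed CPM of 12 epithelial markers, both on log axes; each point is a library and lines join the 4 libraries of a group in order of the epithelial sum. The mono-culture sits at 1.06 to 1.82 summed CPM, and within clones M, T and N and KPC1 the library with the highest sum has the highest Pstpip1 (8.42, 10.7, 12.1 and 4.85 CPM).

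The other 4 genes gave no such relation after adjustment over the 5 tests of this kind. Mfsd2a had r = -0.447 (permutation p = 0.0464, adjusted p = 0.116) and rho = -0.452 (permutation p = 0.0227, adjusted p = 0.0567), with r = -0.510 without the 2 farthest libraries. Ces1a had r = 0.219 (permutation p = 0.321, adjusted p = 0.534) and rho = 0.324 (permutation p = 0.111, adjusted p = 0.185), with 0.288 without the 2 farthest. Gdpd2 had r = -0.113 (permutation p = 0.549, adjusted p = 0.686) and rho = -0.155 (permutation p = 0.443, adjusted p = 0.554), with 0.00876 without them. Parm1 had r = -0.0510 (permutation p = 0.806, adjusted p = 0.806) and rho = -0.0740 (permutation p = 0.715, adjusted p = 0.715), with 0.0461 without them. In mono-culture, where the epithelial sum was lowest, Gdpd2 was at 25.9 CPM and Ces1a at 4.42.

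Ces1a and Mfsd2a deviated in opposite directions between libraries of the same group. Over 36 libraries with group means removed, their Pearson r was -0.670 (permutation within groups, two-sided, p = 0.00017, adjusted over 10 pairs of genes p = 0.0017) and Spearman's rho -0.598 (permutation p = 0.001, adjusted p = 0.01), with r = -0.592 without the 2 libraries farthest in Ces1a. The deviations went with the replicate numbers. Ces1a was lowest in replicate 1 in 7 of the 8 co-cultures and highest in replicate 4 in 6, while Mfsd2a was lowest in replicate 4 in 7 and highest in replicate 1 in 5. In mono-culture it was otherwise, with Ces1a highest in replicate 1 (6.77 CPM) and lowest in replicate 4 (2.56) and Mfsd2a highest in replicate 4 (2.83). The permutations treat the libraries of a group as exchangeable and so ignore this shared number, which makes the p-values for this pair too small to be relied on. After means by replicate number were removed r was -0.433, for which no test was made. The labels do not say what a replicate number marks.

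**Figure D4:**
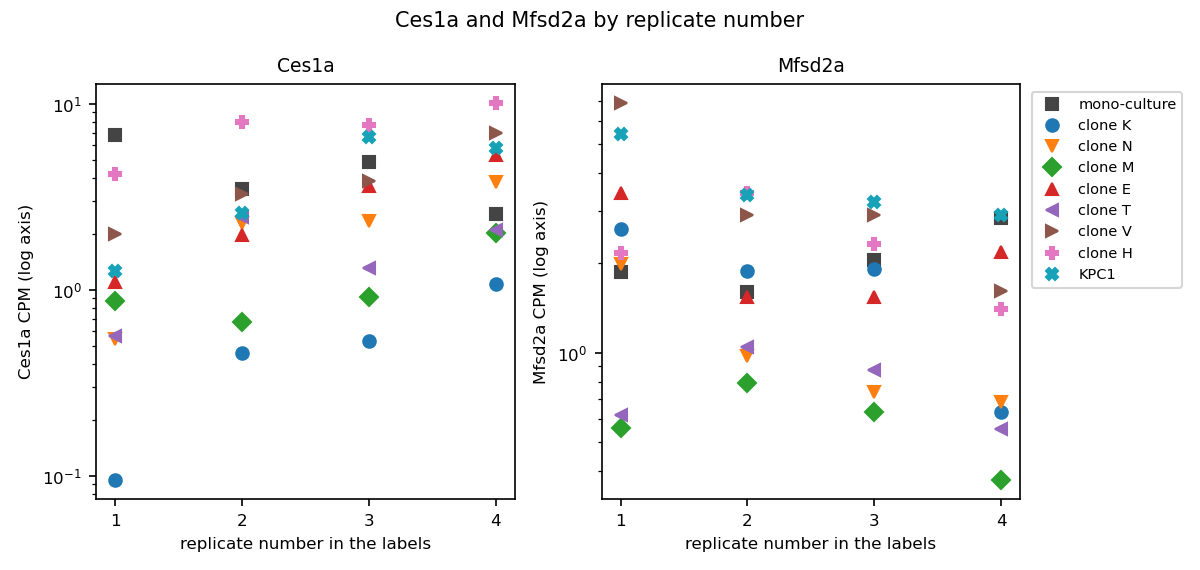
CPM of Ces1a and of Mfsd2a on log axes against the replicate number of the library, with 1 symbol per group. Ces1a is lowest in replicate 1 in 7 of 8 co-cultures and Mfsd2a lowest in replicate 4 in 7 of 8, while in mono-culture (grey squares) Ces1a is 6.77 in replicate 1 and 2.56 in replicate 4.

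None of the other 9 pairs of genes passed after adjustment over the 10 pairs. The pair with the next largest r, Gdpd2 and Parm1, had r = 0.398 (permutation p = 0.0536, adjusted p = 0.172) and rho = 0.445 (permutation p = 0.0188, adjusted p = 0.0647), with 0.346 without the 2 farthest libraries. Pstpip1 and Mfsd2a had r = -0.385 (permutation p = 0.0327, adjusted p = 0.163) and rho = -0.432 (permutation p = 0.0194, adjusted p = 0.0647), with -0.439 without the 2 farthest.

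The relatives of the 5 genes were examined with the same fit, and the F-test among the 8 co-cultures is given for the relatives only. They were listed by family membership, although with earlier results of these data known. The F-test called 72.0% of the 14439 genes, and co-culture against mono-culture 52.7% (3774 higher and 3835 lower), the shares beside which the counts of each list stand. Of the glycerophosphodiester phosphodiesterases, 5 besides Gdpd2 were tested and all 5 differed among the lines, yet their median range was 0.85 on the log2 scale against 7.50 for Gdpd2. Gdpd1, a lysophospholipase D, ran from 25.5 ± 4.42 CPM with clone M to 63.6 ± 6.98 with clone V (SD, n = 4, edgeR adjusted p among lines = 7.63e-10), and Gdpd3, of the same activity, was highest with clone M at 2.93 ± 0.834 and lowest with KPC1 at 1.22 ± 0.256 (edgeR adjusted p = 0.00647). In co-culture against mono-culture 2 of the 5 fell and none rose, Gde1, a glycerophosphoinositol phosphodiesterase, by 0.25 on the log2 scale (edgeR adjusted p = 0.00833) and Gdpd5, a glycerophosphocholine phosphodiesterase, by 0.31 (edgeR adjusted p = 0.0299). The median log2 fold change of the 5 was 0.17, against 0.01 over all genes. Without mono-culture replicate 1, or without mono-culture replicate 3, the count called was 1.

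Of 19 carboxylesterases listed, 5 were tested, Ces1a among them. Of the other 4, 3 differed among the lines, with a median range of 2.07 on the log2 scale, and 2 fell in co-culture, 2 of 4 against the 52.7% over all genes, with a median log2 fold change of -0.58. Ces1g, known for triglyceride hydrolysis in liver, fell by 0.60 on the log2 scale (edgeR adjusted p = 0.0213), from 2.90 ± 0.216 CPM in mono-culture, with 3.63 ± 0.162 with clone K and 0.859 ± 0.138 with clone M. Ces1f fell by 2.81 (edgeR adjusted p = 3.9e-06) from only 0.642 ± 0.198 CPM. Clone K, where Ces1a was lowest, had the highest line mean of both relatives. Without mono-culture replicate 3 the count of the other carboxylesterases called was 1.

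Of the lysophospholipid transport and reacylation genes besides Mfsd2a, 10 of the 13 tested differed among the lines, and in co-culture 5 rose and 6 fell, 11 of 13 against the 52.7% over all genes, with a median log2 fold change of 0.02. Enpp2, the secreted lysophospholipase autotaxin, rose by 1.76 on the log2 scale (SE 0.25, edgeR adjusted p = 1.06e-06), from 23.8 ± 7.22 CPM in mono-culture, and had 249 ± 40.2 with clone M and 22.5 ± 3.24 with clone H. Spns2, the exporter of sphingosine 1-phosphate, rose by 2.17 (edgeR adjusted p = 0.00507) from 0.289 ± 0.241 CPM. Lpcat2, a lysophosphatidylcholine acyltransferase, fell by 0.93 (edgeR adjusted p = 0.00328) and was highest with clone H at 1.92 ± 0.889 CPM.

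Of the F-BAR proteins and PSTPIP1 partners, 17 of the 18 tested besides Pstpip1 differed among the lines, and in co-culture 9 rose and 1 fell, with a median log2 fold change of 0.31. These 10 of 18 are near the 52.7% called over all genes. Ptpn22, a haematopoietic phosphatase of the PTP-PEST family, rose by 2.36 on the log2 scale (SE 0.49, edgeR adjusted p = 0.000158), from 0.518 ± 0.125 CPM, and was highest with clone N at 6.25 ± 3.12, the line in which Pstpip1 was highest too. Gas7, an F-BAR protein known from neurite outgrowth, fell by 1.98 (SE 0.23, edgeR adjusted p = 3.58e-08), from 13.4 ± 3.67 CPM to a lowest line mean of 1.14 ± 0.288 with KPC1. Of the membrane mucins and sialomucins besides Parm1, 5 of the 7 tested differed among the lines, and in co-culture 2 rose and 4 fell, 6 of 7 against the 52.7% over all genes, with a median log2 fold change of -0.22. Podxl, an anti-adhesive sialomucin, rose by 4.03 (SE 0.70, edgeR adjusted p = 1.8e-05), from 0.814 ± 0.257 CPM to 42.1 ± 21.7 with KPC1, where Parm1 was only 9.39 ± 3.72. The part of the tumour-cell markers in the levels of Podxl, Ptpn22 and Spns2 was not tested. Cd34, a sialomucin of progenitor cells and fibroblasts, fell by 1.51 (edgeR adjusted p = 7.16e-12) from 221 ± 16.2 CPM, and Podxl2 fell by 1.32 (edgeR adjusted p = 1.47e-05).

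**Figure D5:**
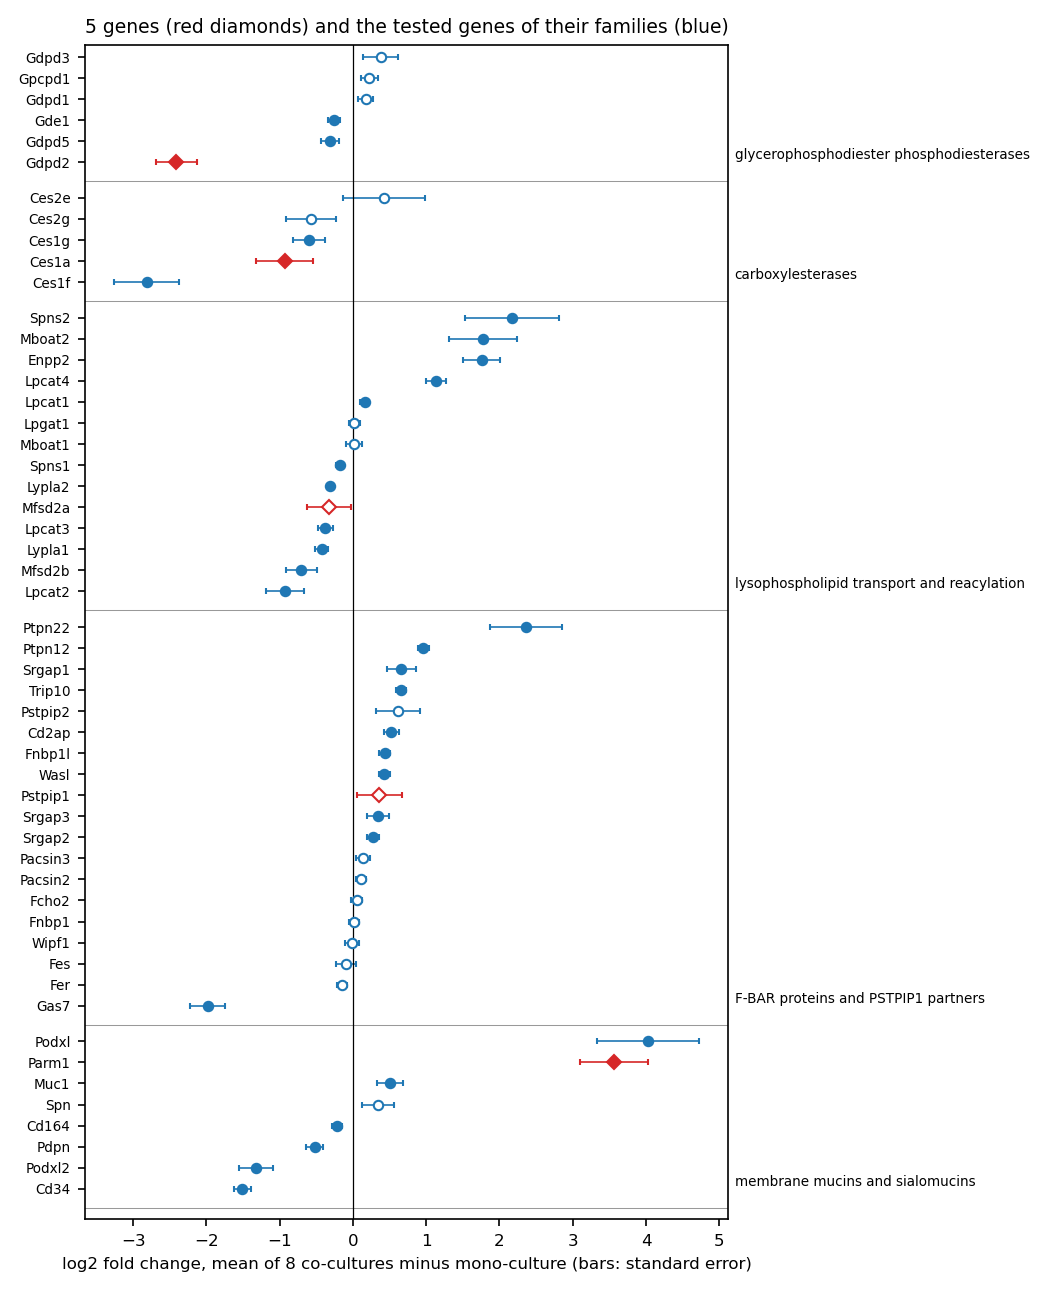
Log2 fold change of the mean of the 8 co-cultures minus mono-culture (bars are SE) for the tested genes of 5 family lists; red diamonds are the 5 genes, blue circles their relatives, and filled symbols have an edgeR adjusted p below 0.05. Parm1 (3.56) and Podxl (4.03) are highest among the mucins, and Gdpd2 (-2.41) is lowest of its list.

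Among 11690 genes with a mean of at least 2 CPM, the genes most like each of the 5 were those with the highest Pearson r over the 9 group means of log2 CPM. For Gdpd2 they were Lama2, a laminin subunit (r = 0.988), A930004D18Rik (0.987), Twsg1, a secreted BMP-binding protein (0.987), Hykk, a hydroxylysine kinase (0.986), and Colec12, a scavenger receptor (0.985). Their ranges over the lines, 0.82 to 1.95 on the log2 scale, were smaller than the 7.50 of Gdpd2. Colec12 had 448 CPM in mono-culture, 433 with clone K and 135.4 with KPC1, and over the 36 libraries with group means removed its r with Gdpd2 was 0.740. That r was 0.722 for Twsg1, 0.474 for Hykk, 0.417 for A930004D18Rik and 0.086 for Lama2.

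For Parm1 the list was the matrix protein nephronectin, Npnt (0.967), the collagen-processing enhancer Pcolce2 (0.960), the microfibril-associated Adamtsl4 (0.959), the scaffold Iqgap2 (0.956) and the calcium channel subunit Cacna2d1 (0.956). Npnt had 14.7 CPM in mono-culture, 70.3 with clone N and 13.2 with clone H, and Adamtsl4 43.1, 161 with clone N and 37.1 with clone V. For Pstpip1 it was the hyaluronidase Hyal1 (0.986), the autophagy factor Atg13 (0.924), the cytochrome oxidase assembly factor Surf1 (0.906), Sgsm3 (0.889) and Cryzl1 (0.887), whose ranges over the lines were 0.22 to 0.47 on the log2 scale against 2.92 for Pstpip1.

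For Ces1a it was the mitotic kinase Plk1 (0.963), Hap1 (0.960), the ubiquitin ligase Trim25 (0.946), Rnf213 (0.941) and the cyclin Ccnb1 (0.940). Rnf213 had 331 CPM in mono-culture, 391 with clone H and 141 with clone K, and Trim25 also followed Ces1a within groups (r = 0.692 over 36 libraries). The within-group r was lower for Plk1 (0.0852), Hap1 (0.28), Rnf213 (0.116) and Ccnb1 (0.274). For Mfsd2a it was Ctla2b (0.929), Basp1 (0.892) and 3 spliceosome genes, Phf5a (0.889), Snrnp40 (0.887) and Snrpd1 (0.883). Ctla2b had a within-group r of -0.448 with Mfsd2a, opposite in sign to that over the group means. Over only 9 group means such values are a description of likeness.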

How the data were processed

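Poly(A) libraries were strand specific, made from 200 ng of RNA with 14 PCR cycles and read as 76 bp paired ends. The authors deposited raw read counts per gene, and RPKM values (counts relative to gene length and library total), for each library. Per the labels, STAR, featureCounts, edgeR and mm10 were used, with no versions given, and the annotation is not given in the sources used here. The 5 genes, the family lists and the marker lists were chosen with earlier results of these data known.

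Counts were analysed with edgeR 4.0.16 (R 4.3.3): filterByExpr on 9 groups, TMM, a robust quasi-likelihood fit of 36 libraries with 1 coefficient per group, and Benjamini-Hochberg adjustment over 14439 genes. Log2 CPM used a prior count of 1. The fit was tested on simulated data. Within groups, the 54 pairs of libraries differed by 4.43 to 44.1 times the sampling noise (chi-square per degree of freedom), so none was counted as a repeat, and the lowest TMM factor was 0.957 and the highest 1.07. Counting error limits genes with few counts.

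Besides the 5 genes, those named were the 5 most like each (over 9 group means, mean of at least 2 CPM) and, per family list, the 2 with the largest range among genes called by the F-test plus the highest and lowest fold change called. Gde1, and the marker genes named, were named after their values were seen. The relations between libraries (permutation within groups) were also chosen after the data were seen. Alternatives were DESeq2 1.42.0, limma 3.58.1 on log2(RPKM + 1) and log2(RPKM + 0.1), RLE or no scaling, other filters, the 7 clones without KPC1, a replicate block and leaving out each library.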

Additional observations from a re-analysis of the deposited data

Results flagged for a closer look

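Of 45 sets of 4 libraries (5 genes in 9 groups), 3 had 1 library far from the other 3, and chance gives about 1 in 20, or 2.25 sets. The gap to the nearest library, as a share of the whole range, was 0.848 for Gdpd2 in clone H replicate 3 (0.258 CPM, the others 1.004 to 1.14), 0.954 for Pstpip1 in clone N replicate 2 (12.1 CPM, the others 6.43 to 6.69) and 0.868 for Pstpip1 in clone E replicate 3 (1.90 CPM, the others 0.814 to 0.957). The Pstpip1 libraries concerned had the highest summed epithelial level of their groups, 692 CPM in clone N and 523 in clone E, and the part of those markers was not tested.

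For 3 of the genes each library of one line was above the mean of mono-culture and each library of another was below it. The log2 fold changes against mono-culture differed by 7.37 for Gdpd2 (clone K minus KPC1), by 2.98 for Pstpip1 (clone N minus clone H) and by 2.64 for Mfsd2a (KPC1 minus clone M). These differences were not tested, since the genes were selected on the levels over the lines.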

How the results depend on the processing

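With each library left out in turn, the log2 fold change of co-culture against mono-culture ranged from -2.56 to -2.30 for Gdpd2, 3.42 to 3.79 for Parm1, 0.29 to 0.39 for Pstpip1, -1.13 to -0.65 for Ces1a and -0.43 to -0.14 for Mfsd2a, and only Ces1a changed its call. Limma on log2(RPKM + 1), a scale that shrinks log2 differences at low RPKM, gave 1.78 for Parm1 and -1.50 for Gdpd2, both still called. The counts of other genes called went from 1 to 2 for the glycerophosphodiester phosphodiesterases and from 1 to 3 for the carboxylesterases. The call of Ces1a was also lost with no filter on low counts (-0.92, edgeR adjusted p = 0.0821) and with limma on log2(RPKM + 1) (-0.53, adjusted p = 0.0555). The count of glycerophosphodiester phosphodiesterases in co-culture was 1 with no filter, and that of carboxylesterases was 1 for the mean of the 7 clones without KPC1. A filter of at least 10 counts in every library gave no value for Gdpd2, Ces1a and Mfsd2a, since it removed them, and by its construction tested fewer genes: it left counts of 0 carboxylesterases and 6 lysophospholipid genes in co-culture and 1 carboxylesterase among the lines. No direction was reversed. The direction and the side of the threshold, or a count within 1.5 times, were kept in 599 of 612 values with a library left out and in 152 of 159 under other settings. The cause of the changes under other settings was not tested.

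With the replicate number as a replicate block, the log2 fold changes were -2.44 for Gdpd2, 3.50 for Parm1, 0.33 for Pstpip1, -1.27 for Ces1a (edgeR adjusted p = 0.00063) and -0.45 for Mfsd2a, and no call changed. Same-numbered libraries of different groups had a median correlation of deviations of 0.168 (-0.381 to 0.703 over 144 pairs, 84 of them over 0.1). For those of different numbers it was -0.0588, and 27 of 36 libraries were closest to their own number. The labels do not say what the number marks, and the main fit did not treat the libraries as paired. Its p-values therefore ignore this shared number. Depth limits Gdpd2 with KPC1 (0 to 9 counts) and Ces1a with clone K (2 to 24 counts).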
